A study of Mus musculus with 3 samples.

Results

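The Myc, Max and Mxd network is described here by the mRNA of its 10 genes in the table of counts, Myc, Mycl, Max, Mxd1, Mxd3, Mxd4, Mxi1, Mnt, Mga and Mlx. They were taken by symbol from the 27998 genes of the table, and all 10 were found. The cells were microglia sorted by YFP from the lumbar cords of mice (C57BL/6, young adults) that were heterozygous for Cx3cr1-creER-yfp, so every cell carried 1 changed Cx3cr1 allele. YFP in this line follows the Cx3cr1 promoter, which circulating monocytes also use. The mice were naive or were taken 24 h or 48 h after sciatic nerve transection, and each group was 1 library of 3 pooled animals. The paper used males and females in about equal numbers across its experiments, but does not give the sexes of each pool. The deposited matrix joins the 3 libraries, and their cells differ by a barcode suffix of 1, 2 or 3. No label or text ties a suffix to a group, so the libraries are called library 1, 2 and 3 of unknown time point, and no value below belongs to a named time point.

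Myc and its relative Mycl are transcription factors that bind DNA as a pair with Max, most tightly at the E-box, and raise the transcription of genes for ribosome assembly, nucleotide synthesis and cell growth. Mxd1, Mxd3, Mxd4, Mxi1, Mnt and Mga compete for Max and, through Sin3 and histone deacetylases or other repressor complexes, lower transcription at the same sites. Mlx is a Max-like protein that pairs with Mlxip and Mlxipl, which respond to glucose, and can also pair with Mnt, Mxd1 and Mxd4.

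The E-box itself was looked for in the promoters of the network's own genes, since it is the site that these proteins bind. RefSeq windows of 300 bases, from 250 before to 50 after a start site (build GRCm38.p6), were found for 9 of the 10 genes, in 11 windows, with none matched for Myc. Among these 11 windows, 4 held the letters CACGTG, each in a different gene, while 7.15% of all 32851 windows held them. The letters read the same on both strands. The 4 windows are shown 5′ to 3′ on the gene's strand with the E-box in capitals. That of Max lies at chr12:76962199-76962498 (minus strand), that of Mxd4 at chr5:34187661-34187960 (minus strand), that of Mnt at chr11:74830674-74830973 (plus strand) and that of Mlx at chr11:101087040-101087339 (plus strand).
Max: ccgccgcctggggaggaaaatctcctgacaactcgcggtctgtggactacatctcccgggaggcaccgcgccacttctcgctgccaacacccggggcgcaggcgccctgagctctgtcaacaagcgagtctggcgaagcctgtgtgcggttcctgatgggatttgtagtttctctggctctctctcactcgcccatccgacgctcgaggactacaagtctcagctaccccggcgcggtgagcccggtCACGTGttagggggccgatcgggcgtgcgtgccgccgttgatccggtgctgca
Mxd4: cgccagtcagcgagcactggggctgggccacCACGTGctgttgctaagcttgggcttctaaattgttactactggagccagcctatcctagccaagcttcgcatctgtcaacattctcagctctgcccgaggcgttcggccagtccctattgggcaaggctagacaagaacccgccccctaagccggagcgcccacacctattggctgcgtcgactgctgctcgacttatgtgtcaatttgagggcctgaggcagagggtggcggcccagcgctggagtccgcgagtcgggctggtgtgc
Mnt: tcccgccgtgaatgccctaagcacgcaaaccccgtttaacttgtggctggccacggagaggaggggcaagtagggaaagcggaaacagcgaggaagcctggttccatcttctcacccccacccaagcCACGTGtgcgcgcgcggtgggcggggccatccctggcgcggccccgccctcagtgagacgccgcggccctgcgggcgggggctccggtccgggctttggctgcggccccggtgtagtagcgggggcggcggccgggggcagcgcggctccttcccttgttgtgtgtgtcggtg
Mlx: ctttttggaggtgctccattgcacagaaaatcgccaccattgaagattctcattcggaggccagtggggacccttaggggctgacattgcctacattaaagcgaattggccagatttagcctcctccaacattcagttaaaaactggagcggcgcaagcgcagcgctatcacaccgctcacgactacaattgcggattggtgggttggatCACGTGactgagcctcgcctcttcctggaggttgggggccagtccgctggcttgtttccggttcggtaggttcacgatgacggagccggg
The E-box starts at base 248 of the window in Max, 32 in Mxd4, 128 in Mnt and 211 in Mlx, counted from 1 at the 5′ end. The E2F letters TTTCCCGC and TTTGGCGC, searched on both strands, were in none of the members' windows and in 1.56% of all windows, which says only that these letters are not in these windows.

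Levels are given as CPM, the UMIs (unique molecular identifiers, 1 per captured mRNA) of a gene per 1000000 UMIs of a library, with exact 95% Poisson intervals. These intervals, and those of shares and ratios below, cover counting error only and not the spread between animals. Overlapping intervals do not show that values are equal, and no interval was taken for a ratio of shares. Those of levels and ratios also leave out the spread of UMIs between cells. No test could be made between groups of 1 library each. The matrix held 45209768 UMIs in 7522 cells. Libraries 1, 2 and 3 had 609, 3591 and 3322 cells with a median of 2218, 5952 and 5742 UMIs, so library 1 gives the widest intervals. To compare shares of cells, each cell was thinned to 2000 UMIs, which kept 408, 3569 and 3284 cells. Libraries 2 and 3 shared 19 barcode sequences, libraries 1 and 2 shared 5, and libraries 1 and 3 shared 3. The 10 microglia markers were each found in 31.9 to 100% of the cells of a library. The 7 monocyte markers summed to 3.32 to 8.93 CPM, and the red blood cell and neutrophil markers were at 0 in library 1. T and NK cell markers summed to 1.49, 14.6 and 0.253 CPM in libraries 1, 2 and 3, with up to 4.04% of the cells of library 2 holding 1 of these genes. Astrocyte markers summed to 103 to 167 CPM and oligodendrocyte markers to 143 to 148 CPM in the 3 libraries, and the part of this RNA in the results below was not tested. At least 2 oligodendrocyte genes were found in 3.12%, 17.6% and 14.9% of the cells of libraries 1, 2 and 3. The shares of cells with markers were taken without thinning, and such a share rises with depth. Whether these UMIs are from other cells or from free RNA was not tested, and no background level was measured for the members.

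Myc mRNA was highest in library 3. The level of Myc (chr15:61985391-61990374, GRCm38) was 30.5 CPM in library 1 (41 UMIs, 21.9 to 41.4), 40.5 CPM in library 2 (976 UMIs, 38.0 to 43.1) and 95.9 CPM in library 3 (1895 UMIs, 91.6 to 100.3). The interval of library 3 lies above both others, while those of libraries 1 and 2 overlap. The ratio of levels between libraries 3 and 2 was 2.37 (2.19 to 2.56), that between libraries 3 and 1 was 3.14 (2.31 to 4.39) and that between libraries 2 and 1 was 1.33 (0.971 to 1.86). Of the 41 Myc UMIs of library 1, 5 came from 1 cell, and without that cell the level was 26.9 CPM and the ratio between libraries 2 and 1 was 1.503. In library 1, Myc was at 10.9 CPM (3 UMIs, 2.25 to 31.9) in the 201 cells under 2000 UMIs and at 35.6 CPM (25.2 to 48.8) in the 408 deeper cells. Among cells of at least 2000 UMIs the ratio was 1.14 between libraries 2 and 1 and 2.70 between libraries 3 and 1. In cells thinned to 2000 UMIs, Myc was found in 5.64% of cells of library 1 (3.61 to 8.34), 7.59% of library 2 (6.75 to 8.51) and 15.8% of library 3 (14.5 to 17.1), the same order as the levels. Pvt1, a long noncoding RNA gene that starts 47611 bases past the end of Myc, was at 20.8, 23.7 and 23.8 CPM in libraries 1, 2 and 3. Its ratio between libraries 3 and 2 was 1.01 (0.888 to 1.14), an interval that holds 1 and lies below that of Myc.

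Mycl, the relative of Myc first found in lung cancer, was highest in library 1. Its level was 19.4 CPM in library 1 (26 UMIs, 12.6 to 28.4), 4.36 CPM in library 2 (105 UMIs, 3.56 to 5.27) and 6.22 CPM in library 3 (123 UMIs, 5.17 to 7.42). Each of the 26 UMIs in library 1 was in a cell of its own. The level was highest in shallow cells, as 12 of them were in the 201 cells under 2000 UMIs (43.7 CPM, 22.6 to 76.3) and the 408 deeper cells held 14 (13.1 CPM, 7.17 to 21.99). Among cells of at least 2000 UMIs the ratio of Mycl between libraries 2 and 1 was 0.333, against 0.225 with all cells. At equal depth Mycl was found in 2.21% of cells of library 1 (1.01 to 4.15), 1.01% of library 2 (0.707 to 1.39) and 1.25% of library 3 (0.897 to 1.69), and these intervals overlap. The part of cell depth in the Mycl level of library 1 was not tested further. Mycn, the third gene of this family, had 0 UMIs in every library, and 3 UMIs, the limit that a count of 0 allows, would be 2.23, 0.124 and 0.152 CPM in libraries 1, 2 and 3.

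Max, the partner that Myc and its antagonists share, varied less. Its level was 55.1 CPM in library 1 (43.3 to 69.2), 48.7 CPM in library 2 (45.9 to 51.5) and 62.2 CPM in library 3 (58.7 to 65.7). The ratio between libraries 3 and 2 was 1.28 (1.18 to 1.38), which is smaller than that of Myc. Mlx was at 27.5, 25.3 and 29.7 CPM in libraries 1, 2 and 3, and the interval of library 1 overlaps both others. Its ratio between libraries 3 and 2 was 1.18 (1.05 to 1.32), which came to 1.04 in cells thinned to 2000 UMIs. Its partner Mlxipl, the carbohydrate-response factor ChREBP, was at 137, 162 and 145 CPM, and Mlxip was at 23.1, 17.9 and 16.5 CPM. The deposited counts of Max and Mxd1 cannot be told apart from any reads of a gene model that overlaps each of them on the same strand, Gm47218 and Gm44292. Mxd3, Mlx, Mxd4 and Mxi1 overlap a gene on the opposite strand (Prelid1, Psmc3ip, Gm42846 and, for Mxi1, Gm10197 and AC133451.2), and whether strand was used in counting is not given in the sources used here.

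**Figure D1:**
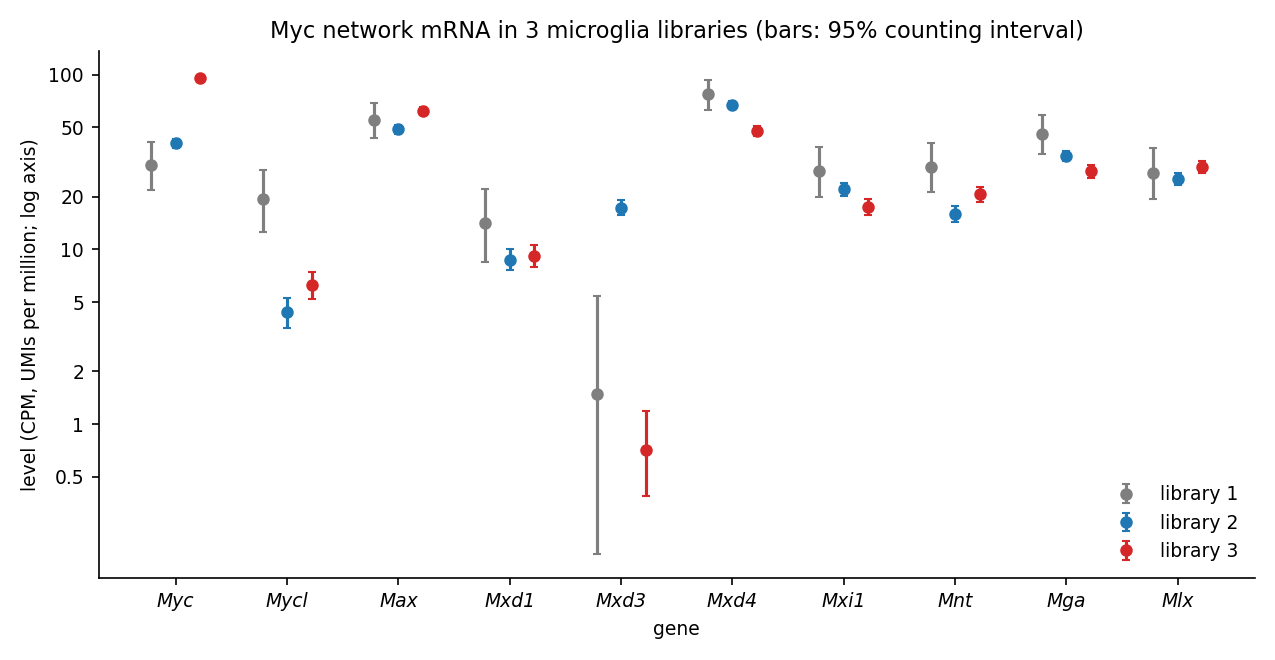
Level of each gene in CPM (log axis) in library 1 (grey), 2 (blue) and 3 (red), with 95% Poisson intervals as bars. Myc stands at 95.9 CPM in library 3 against 30.5 and 40.5, Mxd3 at 17.4 CPM in library 2 against 1.49 and 0.708, and Mycl at 19.4 CPM in library 1 against 4.36 and 6.22.

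Mxd3, an antagonist of Myc known to be expressed in dividing cells, was found almost only in library 2. It had 2 UMIs in library 1 (1.49 CPM, 0.180 to 5.38), 419 in library 2 (17.4 CPM, 15.8 to 19.1) and 14 in library 3 (0.708 CPM, 0.387 to 1.19). Libraries 1 and 3 overlap and library 2 lies above both. The level was 24.6 times that of library 3 (14.5 to 45.3) and 11.7 times that of library 1 (3.21 to 96.7), the latter resting on 2 UMIs. At equal depth Mxd3 was found in 3.28% of cells of library 2 (2.72 to 3.92), against 0.183% in library 3 (0.0671 to 0.397) and 0.490% in library 1 (0.0594 to 1.76). It followed the opposite order to Myc between libraries 2 and 3. T and NK cell markers were also highest in library 2. Without the 221 cells of library 2 with a UMI of them, which held 30 Mxd3 UMIs, the level of Mxd3 was unmoved at 17.4 CPM. Only 6 cells of library 2 held 2 or more of these marker genes. A T or NK cell without a marker UMI would stay in, so this removal cannot show which cells held Mxd3.

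Mxd4, known from resting and differentiating cells, was lowest in library 3. Its level was 77.4 CPM in library 1 (63.3 to 93.8), 67.1 CPM in library 2 (63.9 to 70.5) and 47.7 CPM in library 3 (44.7 to 50.8), with libraries 1 and 2 overlapping. The ratio between libraries 3 and 2 was 0.711 (0.655 to 0.771). Mxi1, which represses Myc targets through Sin3, stood in the same order at 28.3, 22.1 and 17.6 CPM in libraries 1, 2 and 3, with a ratio of 0.796 (0.693 to 0.913) between libraries 3 and 2. Mxd1, which is induced when many blood cells differentiate, was at 14.1, 8.76 and 9.21 CPM, and its 3 intervals overlap.

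Mnt and Mga are the antagonists found in most cell types. Mnt was at 29.8 CPM in library 1 (21.3 to 40.6), 15.98 CPM in library 2 (14.4 to 17.7) and 20.7 CPM in library 3 (18.7 to 22.8). Library 2 lies below both others here. Mga, a large protein that also has a T-box domain and joins a Polycomb complex, was at 46.2 CPM in library 1 (35.4 to 59.2), 34.3 CPM in library 2 (32.0 to 36.7) and 28.0 CPM in library 3 (25.7 to 30.5). The order of libraries was that of Mxd4 and Mxi1, with libraries 1 and 2 overlapping.

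The 10 genes were set against all genes by a fixed fold of 1.5 among genes with at least 50 UMIs over both libraries. Between libraries 3 and 2, only Myc was past this fold upward and only Mxd3 downward among the 10 members, while 6.01% of all 11288 genes were past it upward and 10.7% downward. The median log2 ratio of the members was 0.15, against -0.04 over all genes. Between libraries 3 and 1, Myc was past the fold upward and Mycl, Mxd1, Mxd4, Mxi1 and Mga downward, or 5 of the 9 members with enough UMIs, where the shares over all 10291 genes were 14.0% and 21.6%. Mxd3 was left out of this comparison with 16 UMIs. Between libraries 2 and 1, Mxd3 was past the fold upward and Mycl, Mxd1 and Mnt downward among 10 members, with 16.6% and 19.7% of all 10741 genes. The 3 comparisons share libraries and are not independent. The median log2 ratio of genes with 50 or more UMIs in both libraries was -0.11 for library 3 against library 1 and -0.12 for library 2 against library 1. Taken relative to this shift, 3 members, Mycl, Mxd4 and Mga, were past the fold downward between libraries 3 and 1 in place of 5. Mxd4 at 0.666 and Mga at 0.656 then lay close to the limit, and no member past the fold changed direction. The share of all genes past the fold after this step is not given here. The intervals of Mxd1 in both comparisons with library 1 include a ratio of 1.

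**Figure D2:**
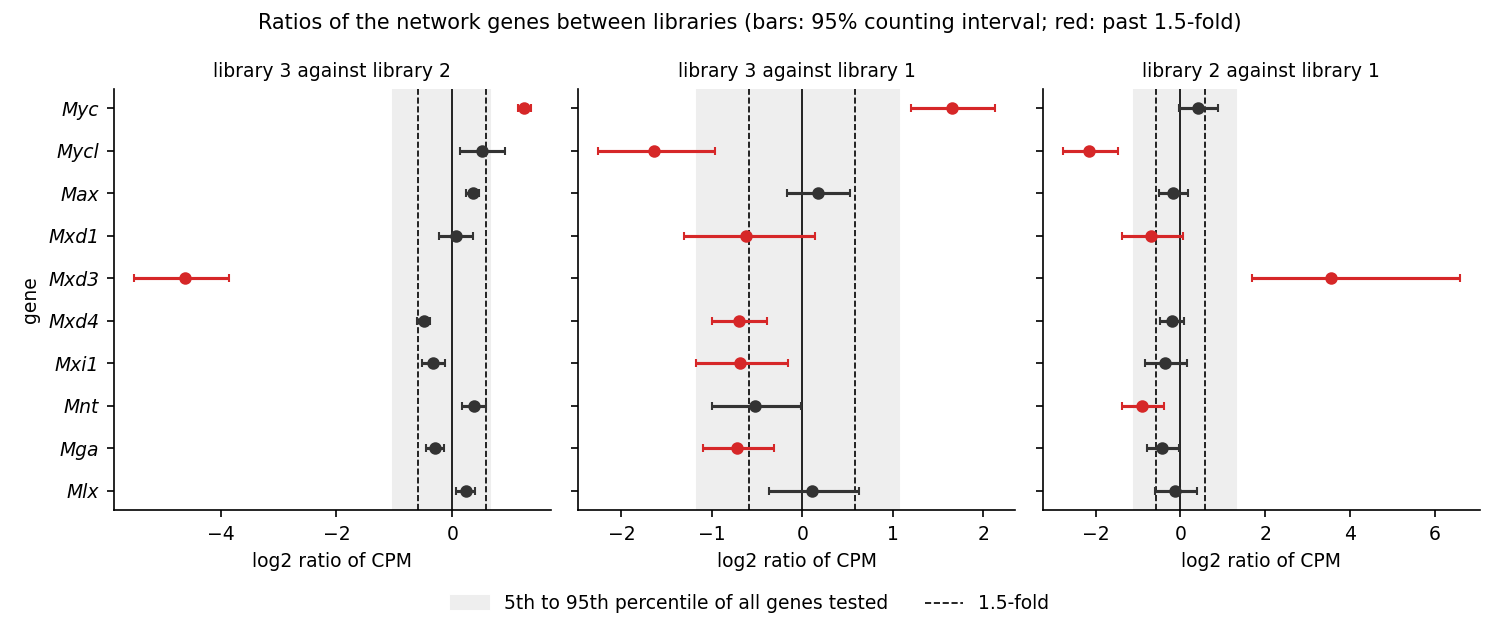
Log2 ratio of CPM of each gene in the 3 comparisons of libraries, with 95% counting intervals as bars, red where past 1.5-fold (dashed lines) and with the 5th to 95th percentile of all genes tested in grey(the axes differ in range). Myc at 1.24 and Mxd3 at -4.62 lie outside the grey range between libraries 3 and 2, and the other 8 genes lie within 1.5-fold; Mxd3 is not drawn between libraries 3 and 1.

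The make-up of the network differed between libraries through these genes. Myc took 9.26% of the UMIs of the 10 genes in library 1 (6.72 to 12.3), 14.2% of those in library 2 (13.4 to 15.1) and 30.2% of those in library 3 (29.0 to 31.3). The Mxd family (Mxd1, Mxd3, Mxd4 and Mxi1) took 36.8% in library 1, 40.6% in library 2 and 23.7% in library 3. Max took 16.7%, 17.1% and 19.6%. The summed level of the 10 genes was 330 CPM in library 1, 284 CPM in library 2 and 318 CPM in library 3, so the sum varied less than its parts.

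Dividing cells were taken from 65 proliferation genes (32 of S phase and 33 of G2/M phase), none of them a member. A cell with 5 or more of their UMIs at equal depth was called dividing and a cell with 0 or 1 other. Library 2 had 1360 dividing cells (38.1%), 1745 between and 464 other cells. Library 3 had 58 dividing cells (1.77%) and library 1 had 2, so the classes were compared mainly in library 2. The limit passes through a continuous range, with 517 cells of library 2 at 4 UMIs and 387 at 5. The other cells of library 2 were not free of proliferation mRNA: Top2a was at 79.5 CPM there and at 2.22 CPM in other cells of library 3, and Mki67 was at 40.5 and 1.07 CPM. Dividing cells of library 2 were also deeper, with a median of 7336 UMIs against 5647. Of the 58 dividing cells of library 3, 55 had more S than G2/M UMIs and 3 had fewer. Their Mki67 was at 35.9 CPM and their Top2a at 112 CPM, against 134 and 317 CPM in dividing cells of library 2. The class thus holds unlike cells in these libraries.

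Mxd3 was higher in dividing than in other cells of library 2, while Myc differed by no more than counting error. The level of Mxd3 was 24.3 CPM in dividing cells (262 UMIs, 21.5 to 27.5) and 12.3 CPM in other cells (34 UMIs, 8.51 to 17.2), a ratio of 1.98 (1.38 to 2.92). At equal depth it was found in 4.85% of dividing cells (3.77 to 6.13) and 2.59% of other cells (1.34 to 4.47), and these intervals overlap. Across cells with 0 or 1, 2 to 4, 5 to 9, and 10 or more proliferation UMIs it was 12.3, 11.5, 18.3 and 37.6 CPM. The first 2 bins overlap, and the last lies above the others, as did its share of cells at equal depth, 8.83% (6.08 to 12.3). From the shallowest to the deepest of 3 equal groups of cells of library 2, Mxd3 was at 14.0, 14.6 and 20.6 CPM. The dividing cells, and most of all the last bin (median 9074 UMIs), were deeper. The part of depth in the Mxd3 levels of these classes was not tested. Between dividing cells with more G2/M than S UMIs (539 cells) and those with more S UMIs (693 cells), Mxd3 was at 28.8 and 20.5 CPM, a ratio of 1.41 (1.08 to 1.84), with shares of 5.38% and 4.33% at equal depth that overlap within counting error. In library 3 it had 3 UMIs in dividing cells (6.74 CPM, 1.39 to 19.7) and 8 in other cells (0.572 CPM, 0.247 to 1.13). The other cells of library 2 thus held more Mxd3 than those of library 3, with intervals that do not overlap.

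Myc was at similar levels across the same bins of library 2, at 39.4, 38.9, 43.7 and 40.0 CPM, and its ratio between dividing and other cells was 1.08 (0.875 to 1.34). It was at 44.6 CPM in S-rich and 39.4 CPM in G2/M-rich cells, a ratio of 0.884 (0.724 to 1.08). In library 3, Myc was at 91.0 CPM in other cells (86.0 to 96.1), 106 CPM in cells with 2 to 4 proliferation UMIs (97.6 to 115) and 135 CPM in the 58 dividing cells (103 to 173). The median depth of these classes rose in the same order, at 5626, 6213.5 and 7089 UMIs. Over 3 equal groups of cells by depth, the level of Myc in library 3 rose from 82.4 to 104 CPM. The part of depth in the levels of these classes of library 3 was not tested. The ratio of dividing to other cells there was 1.48 (1.12 to 1.92), and the shares at equal depth, 25.9% (15.3 to 39.0) and 15.0% (13.6 to 16.4), overlap. Between the other cells of libraries 3 and 2 alone, the ratio of Myc was 2.31 (1.90 to 2.83), close to the 2.37 of all cells.

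The level of Mxd4 was lowest in the cells richest in proliferation mRNA. In library 2 it was 71.2, 75.6, 63.6 and 45.6 CPM across the bins, and the interval of the last (38.7 to 53.4) lies below those of the first 3. The cells of the last bin were also deeper, with a median of 9074 UMIs against 5647 in the first. At equal depth Mxd4 was found in 9.40% of them (6.56 to 12.9), which overlaps the share of the first bin (10.8 to 17.3). From the shallowest to the deepest of 3 equal groups of cells, Mxd4 fell from 75.2 to 60.8 CPM in library 2 and from 53.8 to 43.0 CPM in library 3. The part of depth in the levels of the bins was not tested. The ratio between dividing and other cells was 0.814 (0.693 to 0.961), but it was 1.03 between cells with and without a Mki67 or Top2a UMI, which turns the direction, and 0.641 with dividing cells taken at 10 UMIs or more. At equal depth Mxd4 was found in 12.1% of dividing cells (10.4 to 13.9) and 13.8% of other cells (10.8 to 17.3), which overlap. Mxi1 did not differ between dividing and other cells by more than counting error, at 22.3 and 22.4 CPM, but was at 26.4 CPM in G2/M-rich and 18.9 CPM in S-rich cells, a ratio of 1.40 (1.06 to 1.84). At equal depth the order of Mxi1 was the reverse, with 4.08% of G2/M-rich (2.58 to 6.11) and 4.47% of S-rich cells (3.06 to 6.29), and the intervals overlap. Among the 10 members, Mxd3 was past 1.5-fold upward and Mycl downward, where 7.78% of all 9974 genes were past it upward and 1.67% downward. Mycl had 37 UMIs in dividing and 15 in other cells, and its ratio of 0.634 has an interval of 0.340 to 1.24 that includes 1. Max, Mlx, Mnt, Mga and Mxd1 had ratios of 0.762 to 0.950, each with an interval that includes 1, and that of Mlx came to 1.36 in cells thinned to 2000 UMIs.

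**Figure D3:**
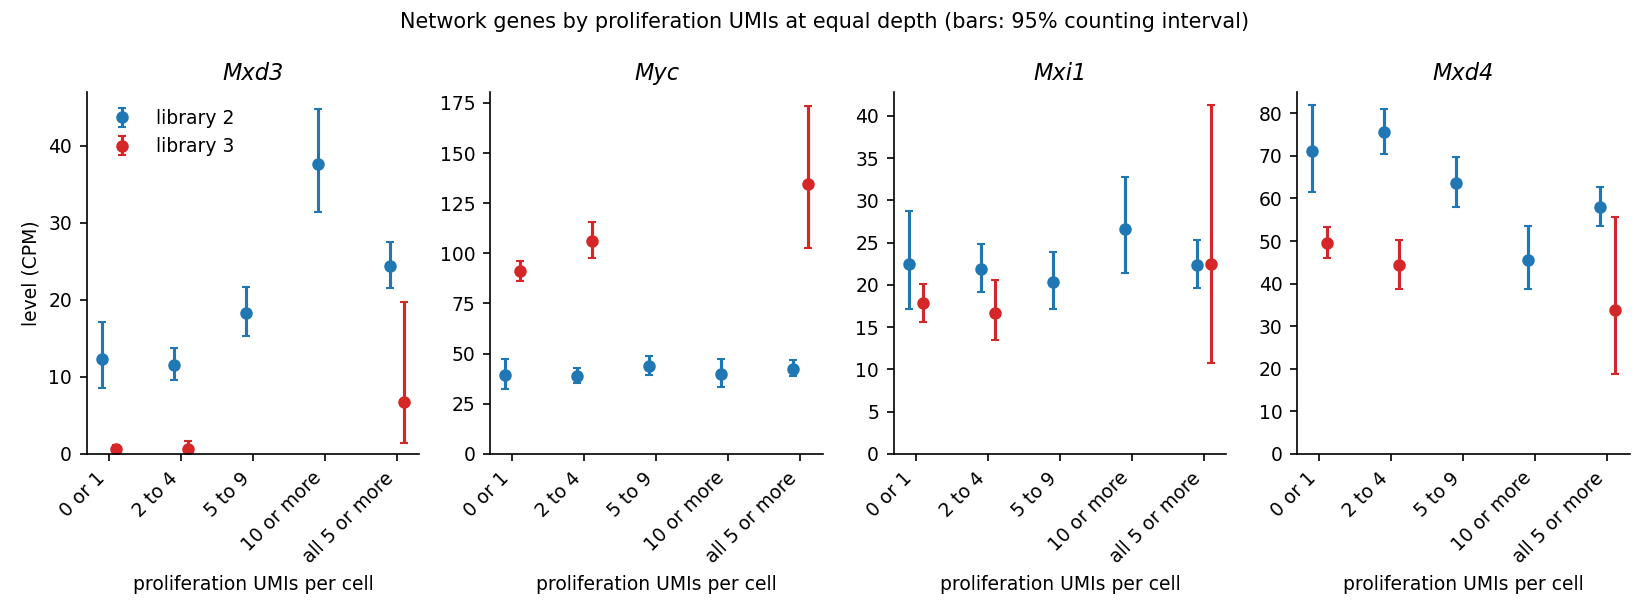
Level in CPM of Mxd3, Myc, Mxi1 and Mxd4 by the number of proliferation UMIs in a cell thinned to 2000 UMIs, in library 2 (blue) and library 3 (red), with 95% Poisson intervals as bars and all dividing cells at the right. Mxd3 rises from 12.3 to 37.6 CPM over the bins of library 2, Mxd4 runs from 71.2 to 45.6 CPM, and Myc stays at 38.9 to 43.7 CPM in library 2 below its 91.0 to 135 CPM in library 3.

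The higher Myc level of library 3 was found in many cells but was uneven over them. At equal depth, 13.6% of its cells had 1 Myc UMI, 1.74% had 2, and 13 cells had 3 or more, while library 2 had 7.09% with 1, 0.504% with 2 and none of 3569 cells with 3 or more. The variance of Myc UMIs over cells divided by their mean, which is 1 for random counts, was 1.19 in library 3, 1.04 in library 2 and 1.45 in library 1. In library 1 it rests on the cell named above. The other members lay between 0.988 and 1.08 in library 3, below Myc. For the same unevenness between cells this value rises with the mean, and Myc had the highest mean among the members of library 3. Its mean was 0.185 UMIs per thinned cell, against 0.123 for Max and 0.0183 for Mxd1, and was 0.0810 in library 2. These values thus do not show that Myc was more uneven than other members, or than in library 2. Over the 3 libraries the other members lay between 0.936 and 1.19, the highest being Mga in library 1 with 41 UMIs. Before thinning, the most Myc UMIs in a cell were 12 in library 3, 4 in library 2 and 5 in library 1. Cells with 5 or more numbered 28 in library 3, 0 in library 2 and 1 in library 1. From the shallowest to the deepest of 3 equal groups of cells, the level in library 3 was 82.4, 93.3 and 104 CPM.

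**Figure D4:**
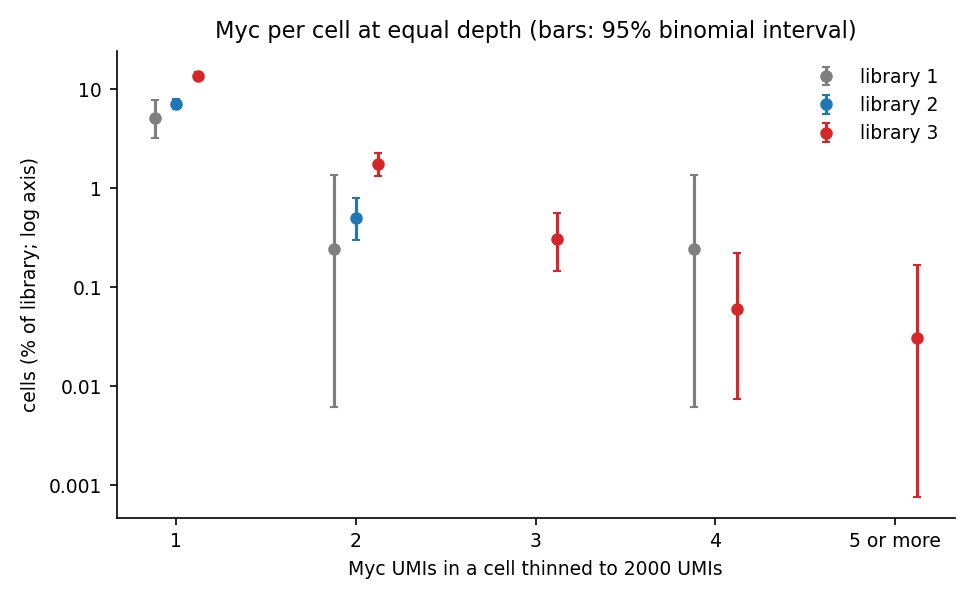
Share of cells (%, log axis) with 1, 2, 3, 4 and 5 or more Myc UMIs in cells thinned to 2000 UMIs, for library 1 (grey), 2 (blue) and 3 (red), with exact 95% binomial intervals as bars and classes without a cell left blank. Library 3 lies above library 2 at 1 UMI (13.6% against 7.09%) and 2 UMIs (1.74% against 0.504%).

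Myc was not found more or less often beside any other member by more than counting error. At equal depth in library 3, Myc was found in 16.8% of the 380 cells with Max (13.2 to 21.0) and in 15.6% of the 2904 cells without (14.3 to 17.0). Cells with Mxd4 had Myc in 13.2% (9.60 to 17.5) and cells without in 16.03% (14.7 to 17.4). For each of the 9 other members in libraries 2 and 3 the paired intervals overlap. At this depth most members of a cell are missed: 53.3% of cells in library 3 and 57.9% in library 2 had no UMI of any member, so the overlap is no measure of whether the mRNAs share cells.

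Other genes of the pathway were counted by lists taken from textbook knowledge, chosen with earlier results of these data known. The counts of these lists are thus not independent of these data. Genes that Myc is known to raise (40 genes) were past the fold upward in 7 and downward in 1 between libraries 3 and 2, where 6.01% and 10.7% of all genes were, with a median log2 ratio of 0.31 against -0.04 over all genes. The largest ratios were those of Ccnd2, a cyclin of G1 phase, at 6.17 and 1.74 CPM in libraries 3 and 2 (ratio 3.54, 2.47 to 5.16), and Slc7a5, an amino acid transporter, at 69.8 and 38.9 CPM (1.79, 1.65 to 1.95). The lowest were Cdc25a, a phosphatase that drives entry into S phase, at 12.5 and 20.3 CPM (0.618, 0.528 to 0.722), and Paics, an enzyme of purine synthesis, at 0.706 (0.646 to 0.771). Against library 1, 24 of 40 were past the fold upward in library 3, where 14.0% of all genes were, and 19 of 39 in library 2, where 16.6% were, with none downward. Srm, the spermidine synthase gene, was at 138 CPM in library 3 and 31.3 CPM in library 1. Nme1, a nucleoside diphosphate kinase gene, was at 215 CPM in library 2 and 58.8 CPM in library 1. Between dividing and other cells of library 2, 4 of 39 were past it upward, among them Cdc25a at 26.6 and 14.1 CPM, a share near the 7.78% of all genes.

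The partners of repression and activation stayed within the fold between libraries 3 and 2. Over all 11288 genes, 6.01% were past it upward and 10.7% downward, and no count below was tested against these shares. None of 16 genes of the Sin3 and histone deacetylase complexes and none of 16 Myc coactivators was past the fold, the ratios of the former running from 0.779 for Rbbp7 to 1.09 for Hdac2 and of the latter from 0.779 for the acetyltransferase gene Ep300 to 1.35 for Wdr5, part of a histone methyltransferase complex. Of 13 genes that act on the stability of the Myc protein, none was past it upward. The 2 downward were Aurka, a mitotic kinase, at 1.97 and 21.2 CPM (ratio 0.0930), and Skp2, a ubiquitin ligase subunit, at 15.3 and 37.8 CPM (ratio 0.404). Both are also genes of dividing cells, and Aurka is 1 of the 33 G2/M genes that chose the dividing cells. Of 6 measured genes that Myc is known to repress, Gadd45b and Gadd45a were past the fold upward, and Cdkn2c, an inhibitor of the cell cycle that was at 53.0 CPM in dividing and 23.9 CPM in other cells of library 2, and Ndrg2 were past it downward. Against library 1, 4 of 16 coactivators were past the fold upward and 3 downward in library 3, and 3 and 2 in library 2. The Sin3 list had 1 and 1 of 16 in library 3, and 2 and 0 in library 2. Stability genes had 0 and 0 of 12, then 4 and 0 of 13. Repressed genes had 3 and 1 of 5, then 2 and 0 of 6. Over all genes, 14.0% and 21.6% were past it in library 3, and 16.6% and 19.7% in library 2.

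Immediate early genes, like Myc, were highest in library 3. The list of 18 immediate early genes was also chosen with earlier results of these data known, so its count is no independent support. All 18 were past the fold upward between libraries 3 and 2, where 6.01% of all genes were. Their ratios ran from 3.97 for Ier5 to 35.7 for Dusp1, a phosphatase of MAP kinases. The 18 genes summed to 29287 CPM in library 3, 3009 CPM in library 2 and 2246 CPM in library 1. Of 8 measured heat shock genes, 6 were past the fold upward, with Hspb1 at 59.0 and 0.581 CPM. Of the heat shock list, Hspd1 and Hspe1 are also in the list of genes that Myc raises. Immediate early genes are known to be induced within minutes by growth signals and by stress, and Myc is itself induced early by growth signals. Within library 3, the share of cells with Myc was 14.2% (12.1 to 16.4), 16.3% (14.1 to 18.6) and 16.9% (14.7 to 19.3) in 3 equal groups of cells with few, intermediate and many immediate early UMIs, and these intervals overlap. Their part in the Myc level of library 3 was not tested.

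Cells rich in Myc were also compared with cells without it within a library. In library 3 at equal depth, the 70 cells with 2 or more Myc UMIs had a mean of 11.99 UMIs of the 40 genes that Myc raises, against 11.04 in the 2766 cells with none, a ratio of 1.09 (1.01 to 1.16). Immediate early genes were at 59.8 and 57.3 UMIs, a ratio of 1.04 (1.01 to 1.08). In library 2 the same ratio for the genes that Myc raises was 1.25 (1.09 to 1.44), from 18 cells with 2 or more Myc UMIs. Heat shock genes had ratios of 1.30 (1.04 to 1.61) in library 2 and 1.13 (1.03 to 1.23) in library 3, and S genes of 1.30 (0.983 to 1.69) and 1.27 (1.01 to 1.57). Coactivators and G2/M genes had intervals that include 1 in both libraries. All these ratios pool UMIs over cells, so their intervals leave out the spread between cells. Immediate early UMIs alone ran from 9 to 122 per cell of library 3. An interval that just misses 1 here thus does not show that the cells differ.

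The genes most like Myc and Mxd3 were found over 5 groups of cells, the other cells of libraries 1, 2 and 3 and the S-rich and G2/M-rich cells of library 2, by the root-mean-square difference of centred log2(CPM + 1) values among 10807 genes. Nearest to Myc was Ccdc86 (difference 0.107), at 51.6, 83.5, 80.1, 75.7 and 153 CPM in library 1 other, library 2 other, S-rich, G2/M-rich and library 3 other cells. It was followed by Gm26825 (0.121), Cited2 (0.123), Mid1 (0.136) and D930030I03Rik (0.145). Nearest to Mxd3 was Spc24 (difference 0.153), a kinetochore gene, at 7.53, 53.5, 75.1, 94.8 and 5.65 CPM in the same order. Kif4, a mitotic motor (0.193), Arhgef39 (0.194), Knstrn, a spindle protein (0.199), and Foxm1, a transcription factor of G2/M genes (0.215), came next. The groups were themselves chosen by proliferation UMIs, which places genes higher in dividing cells near each other. Mxd3 had 1 UMI in library 1 other cells and 8 in library 3 other cells. Kif4 and Foxm1 were at 0 CPM in library 1 other cells, so these values lie near the floor.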

How the data were processed

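The authors deposited counts of UMIs per gene and cell as 1 sparse matrix (10x Genomics 3′ libraries), not normalized. The submitters' processing notes name Cell Ranger 2.1.1 and mm10 with no role; for cell calling and any down-sampling on joining, the rule is not given in the sources used here. Counts were summed per library or cell class and divided by the total (CPM). Intervals were exact Poisson for CPM, Clopper-Pearson for shares and exact conditional for ratios (95%). Cells were thinned to 2000 UMIs without replacement (seed 1). All deposited cells were used, and no doublet caller was run. Members past 1.5-fold were counted among genes with at least 50 UMIs over both groups. Named genes were all members, the 2 highest and 2 lowest ratios of a list in a comparison (other genes of a count of 5 or fewer were named after their values were seen), the 5 profiles nearest Myc and Mxd3, Pvt1 and markers. Top2a, Mki67, Mycn, Mlxip and Mlxipl were added after values were seen. Members and lists were chosen with earlier results of these data known. The design's unit (counts) held. Positions are from GENCODE M21 (GRCm38) and promoters from RefSeq. The fold step and thinning were tested on simulated data. Python 3.11.15 was used with numpy 2.4.6, scipy 1.17.1 and pandas 2.3.3. Alternatives were other minimums, folds, scalings, cell filters, depths and class limits.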

Additional observations from a re-analysis of the deposited data

How the results depend on the processing

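No paired analysis was possible because the series has 1 library per time point, and no leave-one-out of a library applies. Of 118 recomputed counts of members past the fold, 102 stayed within 1.5 times. Only the number was compared, so the genes could change. With dividing cells taken at 10 UMIs or more, the lower member was Mxd4 (0.641), as Mycl had 6 and 15 UMIs. In thinned sums Mga (0.655) became a lower member between libraries 2 and 1, and Mnt (0.630) between libraries 3 and 1. No share of all genes was set beside a recomputed count. Between libraries 3 and 1, the count of 5 lower members fell to 3 with scaling by the median ratio of genes and to 1 at a fold of 2. Between libraries 2 and 1, the count of 3 lower members was 1 at a fold of 2, and the count of 1 higher member was 2 (Myc and Mxd3) without the cell with the most Myc UMIs, an alternative added after seeing the data. In dividing against other cells of library 2, the higher count was 0 at a fold of 2. The lower count of 1 (Mycl) was 0 at a fold of 2, at a minimum of 200 UMIs, with a pseudocount of 1 CPM, with the mean of per-cell CPM, in thinned sums, without the 5% deepest cells, without cells of shared barcodes, without cells with a T and NK cell UMI, with dividing cells taken at 3 UMIs or more, by a Mki67 or Top2a UMI, and against other cells with 0 to 4 proliferation UMIs. In thinned sums and at the minimum of 200 fewer members were tested. Apart from the fold of 2, Mycl had enough UMIs to be tested in 11 of 16 alternatives. Where it had enough, the cause of the change was not tested. The ratio of Myc between libraries 3 and 2 ran from 2.28 to 2.41 over its 13 alternatives, and that of Mxd3 between dividing and other cells from 1.58 to 3.06 over 16, the highest with dividing cells taken at 10 UMIs or more. The ratio of Mxd3 between libraries 3 and 2 was 0.0407 and came to 0.0929 with a pseudocount of 1 CPM. Between libraries 2 and 1 it was 11.7, with 6.80 in thinned sums and 20.5 without the 5% deepest cells. The ratio of Mycl between libraries 3 and 1 was 0.321, with 0.566 in thinned sums. Of 525 recomputed ratios, 518 stayed within the counting interval and none past the fold changed direction. Part of this count was fixed in advance, as were some of the 13 and 16 alternatives above. The minimums of UMIs cannot move a ratio, and the cell filter left out no cell of libraries 2 and 3. Among those within the fold, the ratio of dividing to other cells turned from 0.814 to 1.03 for Mxd4 by a Mki67 or Top2a UMI and from 0.950 to 1.36 for Mlx in thinned sums. Of 210 recomputed shares of cells, 109 left the counting interval. Another thinning depth, no thinning and a limit of 2 UMIs change how often any gene is found, so shares had to move under them. The library with the highest share held for 10 of 10 members thinned to 1000 UMIs, 8 with at least 2 UMIs, 5 thinned to 4000 UMIs (library 1 keeps 9 cells) and 4 without thinning, where Mxd4 was highest in library 2. Library 1 limits what can be seen, with 1343055 UMIs in all.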
